A study of Mus musculus with 8 samples.

Results

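NRF2 target genes were followed in endothelial cells (ECs) of the neonatal mouse lung. NRF2, encoded by Nfe2l2, is a transcription factor that turns on detoxifying and antioxidant genes. In unstressed cells the adaptor KEAP1 binds NRF2 and passes it to a CUL3 ubiquitin ligase, so that it is destroyed. Oxidants and electrophiles modify cysteines of KEAP1, NRF2 then builds up, pairs with a small MAF protein and binds antioxidant response elements in the promoters of its targets. In the lung this pathway is known for its part in the defence against high oxygen.

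The 10 genes were Slc7a11, Gclc, Gclm and Gsr (glutathione synthesis and recycling), Txnrd1 and Srxn1 (thioredoxin and peroxiredoxin repair), G6pdx (supply of NADPH), Nqo1 (quinone reduction), Hmox1 (heme breakdown) and Osgin1 (growth inhibition). They were chosen by name for these roles, with earlier results of these data known, so counts of calls among them are descriptive. Each symbol matched a single row among the 54532 genes in the table. All 10 passed the filter on low counts, as did 15564 genes in all.

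WT pups of the C57BL/6J strain were kept from postnatal day 0 to day 14 either in room air (21% O2, normoxia, 4 libraries) or in 80% O2 (hyperoxia, 4 libraries), and were sampled at day 14. Both groups were wild type, carried no transgene and, as far as the labels say, received no other treatment. Lung cells were first depleted of CD45+ leukocytes, and the cells that bound CD31 beads were then taken as ECs. Continuous high oxygen after birth serves as a mouse model of bronchopulmonary dysplasia. The question was which of the NRF2 targets differed between hyperoxic and normoxic ECs, and by how much.

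Libraries held 16098086 to 18300730 counts in normoxia and 17601052 to 18059845 in hyperoxia. The defining EC markers were abundant in every library, led by Cdh5 and Pecam1. In normoxia the 7 markers summed to 13898 to 14859 CPM (counts of a gene scaled to a common library size). In hyperoxia they summed to 13631 to 14404 CPM. Of the 7, 3 were higher in hyperoxia, 2 were lower and 2, Cdh5 and Pecam1, did not pass the threshold. Their log2 fold changes ran from -0.79 to 0.42, so single EC markers moved though the sum was similar. Other cell types were also present. The 6 markers of alveolar type 2 (AT2) epithelium, led by Sftpc and Abca3, summed to 227 to 314 CPM in normoxia and 692 to 2060 CPM in hyperoxia, and 6 of 6 were higher in hyperoxia. Hyperoxia 3 stood apart, with 692 CPM where the remaining 3 libraries of its group had 1816 to 2060 CPM. Markers of alveolar type 1 cells (67.2 to 80.3 CPM against 124 to 321 CPM, 5 of 5 higher), fibroblasts (56.0 to 98.6 CPM against 84.1 to 225 CPM, 3 of 4 tested higher) and mural cells (39.1 to 66.2 CPM against 87.3 to 144 CPM, 5 of 5 higher) moved the same way. The 8 macrophage markers summed to 189 to 360 CPM in normoxia and 246 to 536 CPM in hyperoxia (3 higher, 1 lower, 4 not past the threshold). Lyz2 led them, with means of 77.3 and 225 CPM beside mean sums of 252 and 403 CPM. Like the AT2 sum, Lyz2 was lowest of its group in hyperoxia 3 (101 CPM). Ptprc, the next most abundant, had means of 38.4 and 38.3 CPM, so the higher sum does not by itself show more macrophages. The 4 neutrophil markers summed to 6.41 to 29.7 CPM and 12.8 to 67.7 CPM (none of 3 tested past the threshold). The 4 airway markers summed to 1.53 to 3.20 CPM and 2.44 to 3.14 CPM (none of 2 tested). Erythroid markers were lower in hyperoxia (101 to 187 CPM against 76.6 to 111 CPM, 3 of 3 tested). No marker was at 0 in both groups. In bulk samples, a change in the share of a cell type and a change of RNA per cell cannot be told apart, and the part of these cells in the results for the NRF2 targets was not tested.

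In hyperoxia, 7 of the 10 NRF2 targets rose. Srxn1 rose most, 3.41-fold, followed by Nqo1 (2.91-fold), Osgin1 (2.42-fold) and Slc7a11 (2.12-fold). Txnrd1, Gclc and Gsr rose 1.58-fold, 1.47-fold and 1.25-fold. Hmox1, G6pdx and Gclm did not pass the threshold, at 1.15-fold, 1.05-fold and 1.004-fold. Calls rest on edgeR's quasi-likelihood test, with p adjusted after Benjamini-Hochberg over the 15564 genes and 0.05 as the threshold.

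Changes were common in these cells, and the counts of targets have to be read against that. Of all genes tested, 35.6% were called, 18.5% as higher and 17.1% as lower in hyperoxia. Of the 10 targets, 7 were higher and 0 lower by edgeR, and 0 were lower at an unadjusted p under 0.05. DESeq2 and limma-voom also called 7 higher and 0 lower. With a log2 fold change of at least 1 as a further condition, 4 targets were higher, beside 5.62% of all genes tested (6.98% in either direction). All hyperoxia libraries lay above all normoxia libraries for 5 targets, beside 17.8% of all genes tested, and below them for none, beside 17.6%. The median log2 fold change was 0.61 over the 10 targets and -0.0040 over all genes tested.

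**Figure D1:**
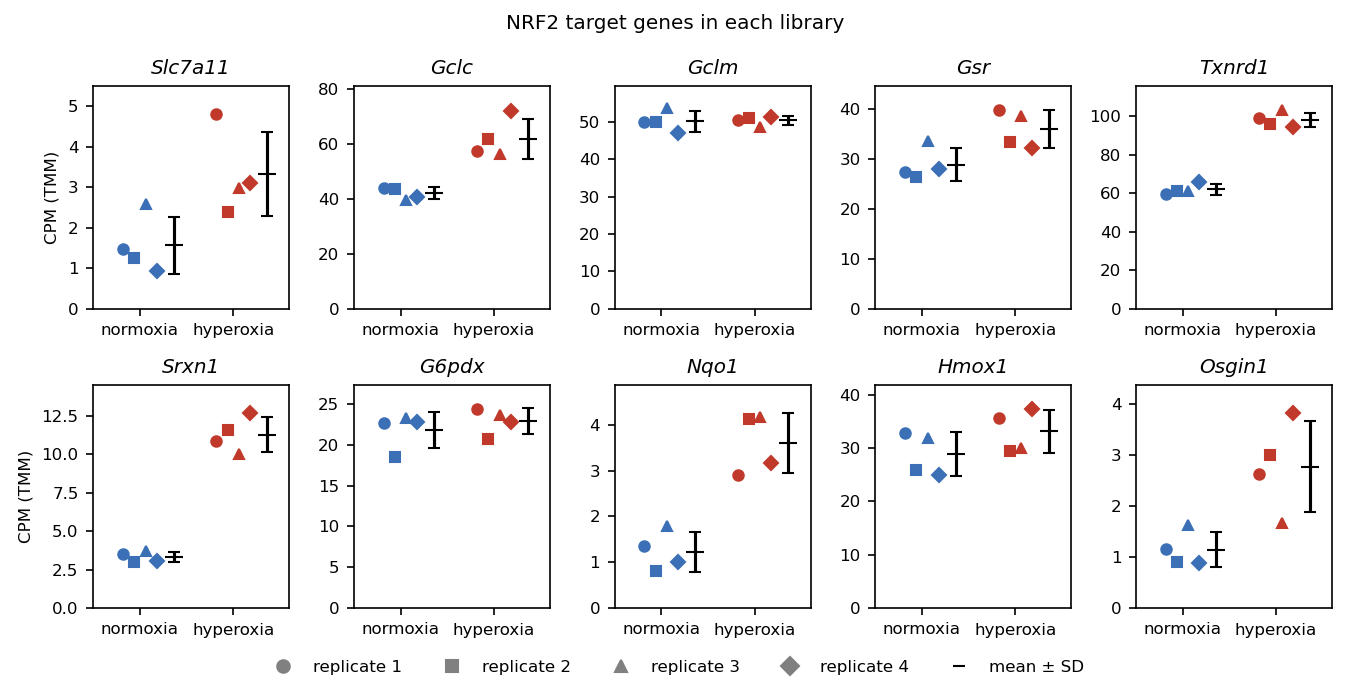
Expression of the 10 NRF2 target genes in each library, in CPM with TMM normalization (y axes start at 0 and differ between panels), with 4 normoxia libraries in blue and 4 hyperoxia libraries in red, the symbol giving the replicate number and the black bar the mean ± SD. Hyperoxia libraries lie above every normoxia library for Gclc, Txnrd1, Srxn1, Nqo1 and Osgin1, while the groups overlap for the other 5 genes.

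Promoter sequence is shown for 4 of the targets as examples. Srxn1, Osgin1 and Slc7a11 held TGANTCAGC or TGATGCAA before the start, and Gclm held TGACNNNGC and did not pass the test. The choice does not pair a motif with a response, since Txnrd1, not shown, also held TGACNNNGC and rose. Each line gives the 250 bases before the RefSeq start of transcription, 5′ to 3′ on the strand of the gene, from build GRCm38.p6. Srxn1 lies at chr2:152105274-152105523 (plus strand), Osgin1 at chr8:119436897-119437146 (plus), Slc7a11 at chr3:50443614-50443863 (minus) and Gclm at chr3:122245307-122245556 (plus). Capitals mark matches on either strand to TGACNNNGC, TGANTCAGC or TGATGCAA. TGACNNNGC is the core of the antioxidant response element. TGANTCAGC is a related form bound by NRF2 with a small MAF protein, and TGATGCAA is a composite site of C/EBP and ATF proteins. TGANTCAGC leaves free a base that TGACNNNGC fixes as C, so the letters TGAGTCAGC match TGANTCAGC but not TGACNNNGC.
Srxn1: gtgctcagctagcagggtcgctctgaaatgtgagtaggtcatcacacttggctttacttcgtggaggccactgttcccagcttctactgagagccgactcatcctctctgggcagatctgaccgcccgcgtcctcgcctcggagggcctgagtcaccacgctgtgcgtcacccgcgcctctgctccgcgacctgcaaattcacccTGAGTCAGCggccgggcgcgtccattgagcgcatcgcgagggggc
Osgin1: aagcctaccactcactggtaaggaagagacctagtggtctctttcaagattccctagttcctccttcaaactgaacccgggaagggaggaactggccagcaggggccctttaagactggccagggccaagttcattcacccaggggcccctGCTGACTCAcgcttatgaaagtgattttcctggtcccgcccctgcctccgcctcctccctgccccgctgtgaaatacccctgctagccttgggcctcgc
Slc7a11: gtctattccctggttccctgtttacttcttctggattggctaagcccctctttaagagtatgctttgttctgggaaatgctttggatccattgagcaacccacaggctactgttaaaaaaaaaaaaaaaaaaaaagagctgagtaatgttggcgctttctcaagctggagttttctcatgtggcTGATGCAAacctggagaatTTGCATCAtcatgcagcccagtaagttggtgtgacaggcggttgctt
Gclm: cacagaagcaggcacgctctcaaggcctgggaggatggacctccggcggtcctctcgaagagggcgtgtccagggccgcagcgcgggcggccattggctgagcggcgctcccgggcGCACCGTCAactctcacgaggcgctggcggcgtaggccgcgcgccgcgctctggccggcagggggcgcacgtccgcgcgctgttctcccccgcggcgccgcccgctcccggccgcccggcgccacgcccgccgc

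In the Srxn1 promoter the capitals read TGAGTCAGC, from -45 to -37 relative to the start. The Osgin1 promoter held the same letters on the opposite strand, from -99 to -91, written there as GCTGACTCA. Slc7a11 held TGATGCAA from -66 to -59 and again, on the opposite strand, from -47 to -40 (TTGCATCA). ATF4, the factor of the amino acid response, is known to bind such composite sites. Gclm held TGACNNNGC on the opposite strand, from -134 to -126 (GCACCGTCA).

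Windows from 250 bases before to 50 bases after the start were available for 7 of the 10 targets, without Gclc, Hmox1 and Gsr. TGACNNNGC was found in 4 of these 7 genes (Gclm, Txnrd1, Srxn1 and G6pdx) and in 12.4% of 32817 windows of this kind across the genome. In Srxn1 that match lay after the start, from 28 to 36. In Txnrd1, which had 3 windows, 1 of them held it, from -92 to -84. TGANTCAGC was found in 2 genes, Srxn1 and Osgin1, and in 1.19% of all windows, and TGATGCAA in Slc7a11 alone of the 7 and in 0.896% of all windows. Genes were counted with a match in any of their windows (9 windows for the 7 genes), whereas the genome shares are per window, so the units differ. The letters TGACTCAGC fit both of the first motifs. Nqo1 had no match in its window. A match is a run of letters and does not show that a factor binds there.

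Glutathione synthesis and recycling held 4 targets, and 3 of them rose. Slc7a11 encodes xCT, the light chain of the transporter that brings cystine into the cell in exchange for glutamate (ENSMUSG00000027737, chromosome 3, 49892526 to 50443614). It was the least expressed target per length. It was counted at 1.47, 1.25, 2.57 and 0.939 CPM in normoxia 1 to 4 and at 4.80, 2.38, 2.98 and 3.11 CPM in hyperoxia 1 to 4, which rested on 17 to 46 and 42 to 84 reads. Normoxia 3 lay above hyperoxia 2, so the groups overlapped, and the other normoxia libraries lay below all hyperoxia libraries. Slc7a11 rose from 1.56 ± 0.711 to 3.31 ± 1.04 CPM (SD, n = 4 each), a log2 fold change of 1.08 (SE 0.322, edgeR adjusted p = 0.0228). This call was lost without normoxia 1, 2 or 4 or hyperoxia 1 (edgeR adjusted p = 0.0516, 0.0621, 0.0630 and 0.0659).

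Gclc encodes the catalytic subunit of glutamate-cysteine ligase, the rate-limiting enzyme of glutathione synthesis (ENSMUSG00000032350, chromosome 9, 77754535 to 77794485). Its levels were 44.0, 43.5, 39.5 and 40.8 CPM in normoxia 1 to 4 and 57.3, 61.5, 56.0 and 71.9 CPM in hyperoxia 1 to 4. The groups were well apart, and hyperoxia 4 was the highest. Gclc rose from 41.9 ± 2.14 to 61.7 ± 7.22 CPM (SD, n = 4 each), a log2 fold change of 0.56 (SE 0.0798, edgeR adjusted p = 0.000350).

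Gclm encodes the modifier subunit of the same enzyme, which raises the efficiency of GCLC (ENSMUSG00000028124, chromosome 3, 122245557 to 122270732). Its levels were 49.9, 49.9, 53.9 and 47.1 CPM in normoxia 1 to 4 and 50.4, 51.0, 48.7 and 51.4 CPM in hyperoxia 1 to 4. The hyperoxia libraries lay within the range of the normoxia libraries. The means were 50.2 ± 2.78 and 50.4 ± 1.20 CPM (SD, n = 4 each), and the log2 fold change of 0.01 (95% interval -0.11 to 0.12, edgeR adjusted p = 0.945) left out a change of the size seen for Gclc. Of its exon bases, 8.58% overlapped other annotated genes.

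The subunits of glutamate-cysteine ligase were set against each other as the ratio of Gclc to Gclm in FPKM (fragments per kilobase of the gene, relative to the library total) within each library. The ratio was 1.47, 1.46, 1.22 and 1.45 in normoxia 1 to 4 and 1.90, 2.01, 1.92 and 2.34 in hyperoxia 1 to 4, without overlap. The log2 ratio was higher in hyperoxia by 0.55 (exact two-sided permutation p = 0.0286, the smallest that 4 against 4 libraries can give). The ratio was formed after the values of both genes were seen. Over the 7 ratios computed, its adjusted p was 0.0667.

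Gsr encodes glutathione reductase, which returns oxidized glutathione to its reduced form with NADPH (ENSMUSG00000031584, chromosome 8, 33652523 to 33698163). Its levels were 27.3, 26.2, 33.6 and 27.95 CPM in normoxia 1 to 4 and 39.7, 33.3, 38.5 and 32.1 CPM in hyperoxia 1 to 4. Normoxia 3 lay above hyperoxia 2 and 4, and the remaining normoxia libraries lay below every hyperoxia library. Gsr rose from 28.8 ± 3.28 to 35.9 ± 3.79 CPM (SD, n = 4 each), a log2 fold change of 0.32 (SE 0.0953, edgeR adjusted p = 0.0234). The call was lost without normoxia 1, 2 or 4 or hyperoxia 1 or 3 (edgeR adjusted p = 0.0598, 0.0654, 0.0621, 0.0639 and 0.0607).

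Both targets of the thioredoxin system rose, and their groups were far apart. Txnrd1 encodes the cytosolic thioredoxin reductase, a selenoprotein that keeps thioredoxin reduced (ENSMUSG00000020250, chromosome 10, 82833951 to 82897712). Its levels were 59.5, 61.2, 61.4 and 66.0 CPM in normoxia 1 to 4 and 99.01, 96.2, 103 and 94.2 CPM in hyperoxia 1 to 4. Libraries of a group were close together, with a coefficient of variation of 4.50% in normoxia and 3.89% in hyperoxia. Txnrd1 rose from 62.0 ± 2.79 to 98.1 ± 3.82 CPM (SD, n = 4 each), a log2 fold change of 0.66 (SE 0.0494, edgeR adjusted p = 4.05e-06).

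Srxn1 encodes sulfiredoxin, which repairs peroxiredoxins whose catalytic cysteine has been over-oxidized (ENSMUSG00000032802, chromosome 2, 152105516 to 152111376). Its levels were 3.49, 3.02, 3.69 and 3.04 CPM in normoxia 1 to 4, or 53 to 66 reads. In hyperoxia 1 to 4 they were 10.8, 11.6, 10.02 and 12.7 CPM, or 175 to 229 reads. The lowest hyperoxia library was well above the highest normoxia library. Srxn1 rose from 3.31 ± 0.336 to 11.3 ± 1.14 CPM (SD, n = 4 each), a log2 fold change of 1.77 (SE 0.127, edgeR adjusted p = 3.02e-06), the largest and the smallest adjusted p among the 10 targets. Its promoter held TGAGTCAGC, as did that of Osgin1 on the opposite strand.

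G6pdx encodes glucose-6-phosphate dehydrogenase, which opens the pentose phosphate pathway and supplies NADPH (ENSMUSG00000031400, chromosome X, 74409483 to 74429194). Its levels were 22.7, 18.5, 23.3 and 22.8 CPM in normoxia 1 to 4 and 24.4, 20.7, 23.6 and 22.8 CPM in hyperoxia 1 to 4. The groups overlapped almost fully, and normoxia 2 was the lowest library. The means were 21.8 ± 2.23 and 22.9 ± 1.62 CPM (SD, n = 4 each), with a log2 fold change of 0.07 (95% interval -0.13 to 0.27, edgeR adjusted p = 0.580). Exons of Ikbkg on the opposite strand covered 13.6% of its exon bases.

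Nqo1 encodes NAD(P)H quinone dehydrogenase 1, which reduces quinones in a single step that avoids radical intermediates (ENSMUSG00000003849, chromosome 8, 107388225 to 107403206). Its levels were 1.35, 0.797, 1.79 and 0.994 CPM in normoxia 1 to 4, or 14 to 32 reads. In hyperoxia 1 to 4 they were 2.91, 4.13, 4.18 and 3.16 CPM, or 51 to 73 reads. No hyperoxia library fell into the normoxia range, though the spread of the low counts was wide, with a coefficient of variation of 35.4% in normoxia. Nqo1 rose from 1.23 ± 0.436 to 3.60 ± 0.655 CPM (SD, n = 4 each), a log2 fold change of 1.54 (SE 0.260, edgeR adjusted p = 0.00103).

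Hmox1 encodes heme oxygenase 1, the inducible enzyme that opens heme into biliverdin, carbon monoxide and iron (ENSMUSG00000005413, chromosome 8, 75093621 to 75100589). Its levels were 32.9, 25.9, 31.8 and 24.9 CPM in normoxia 1 to 4 and 35.7, 29.4, 30.1 and 37.4 CPM in hyperoxia 1 to 4. Hyperoxia 2 and 3 lay within the normoxia range, and hyperoxia 1 and 4 lay above it. The means were 28.9 ± 4.06 and 33.2 ± 4.002 CPM (SD, n = 4 each), with a log2 fold change of 0.20 (95% interval -0.05 to 0.44, edgeR adjusted p = 0.192). The interval reached a 1.36-fold rise and left out a rise of the size of Nqo1 or Srxn1.

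Osgin1 encodes oxidative stress induced growth inhibitor 1 (ENSMUSG00000074063, chromosome 8, 119434124 to 119446256). Its levels were 1.16, 0.910, 1.62 and 0.884 CPM in normoxia 1 to 4, or 16 to 29 reads. In hyperoxia 1 to 4 they were 2.63, 3.002, 1.66 and 3.83 CPM, or 29 to 69 reads. Hyperoxia 3 was only just above normoxia 3, and these libraries held 29 reads each. Osgin1 rose from 1.14 ± 0.342 to 2.78 ± 0.899 CPM (SD, n = 4 each), a log2 fold change of 1.28 (SE 0.300, edgeR adjusted p = 0.00708).

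Levels can be compared between genes only per length, so their order is given in FPKM. The length counted all annotated exons of a gene, from 1553 bases for Nqo1 to 13922 for Slc7a11. Where the transcript in these cells is shorter than that, FPKM reads too low, so the order is approximate. In normoxia Hmox1 was the most expressed of the 10 targets (16.4 ± 2.34 FPKM, SD, n = 4), followed by Gclc (11.04 FPKM), Gsr (10.4), Txnrd1 (8.68), Gclm (7.91), G6pdx (7.02), Srxn1 (1.16), Nqo1 (0.787), Osgin1 (0.425) and Slc7a11 (0.111 ± 0.0508 FPKM). Neighbours in this order overlapped between libraries for Gclc and Gsr, Txnrd1 and Gclm, Gclm and G6pdx, Srxn1 and Nqo1, and Nqo1 and Osgin1. In hyperoxia Hmox1 was again first (18.8 ± 2.22 FPKM) but overlapped Gclc (16.3 FPKM), and Txnrd1 (13.8) moved ahead of Gsr (13.0), which it overlapped. Gclm (7.97) and G6pdx (7.39) followed and overlapped. Srxn1 (3.98), Nqo1 (2.30), Osgin1 (1.03) and Slc7a11 (0.237) stayed at the lower end, each apart from its neighbours. The 4 targets with the largest log2 fold changes were thus also the 4 with the lowest FPKM.

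The 10 targets together took 231 to 253 CPM in normoxia and 313 to 333 CPM in hyperoxia. Among the normoxia libraries, normoxia 3 had the highest value for 7 of the 10 genes, and it also had the highest sum of macrophage markers of its group (360 CPM against 189 to 270 CPM). Hyperoxia 1 had the highest macrophage sum of its group (536 CPM, of which 315 CPM were Lyz2). It was highest for 3 genes (Slc7a11, Gsr and G6pdx), and hyperoxia 4 was highest for 5. The calls of Slc7a11 and Gsr were lost without hyperoxia 1, as without some other libraries. Hyperoxia 3, with the lowest sum of AT2 markers of its group, held 319 CPM of the targets, within the range of the other hyperoxia libraries. This sum rests mostly on abundant targets such as Txnrd1, which was highest in hyperoxia 3 (103 CPM). Hyperoxia 3 had the lowest value of its group for 4 of the 10 genes, among them Srxn1 and Osgin1, and the highest for 2. The part of AT2 cells or macrophages in these values was not tested. Without hyperoxia 3, 6 targets were called higher, since Gsr was lost, and the log2 fold change was 1.82 for Srxn1, 1.46 for Nqo1, 1.46 for Osgin1, 1.13 for Slc7a11, 0.64 for Txnrd1 and 0.60 for Gclc. Without normoxia 3 the count was 7.

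**Figure D2:**
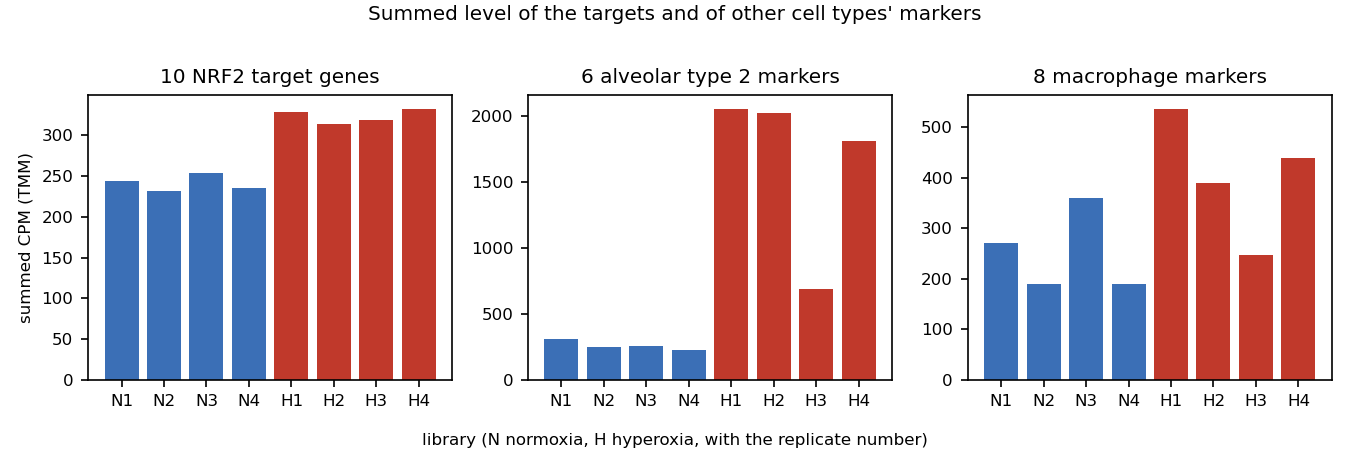
Summed CPM (y axes start at 0 and differ between panels) of the 10 NRF2 targets, the 6 AT2 markers and the 8 macrophage markers in each library, with normoxia in blue and hyperoxia in red, 1 bar a library and no error bars. The targets, a sum led by the abundant ones, lie between 313 and 333 CPM in all hyperoxia libraries. AT2 markers are at 692 CPM in hyperoxia 3 and at 1816 to 2060 CPM in the other 3. Lyz2, which leads the macrophage sum, is at 101 CPM in hyperoxia 3 and at 232 to 315 CPM in the other 3.

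Paralogs and partners of the targets were compared with them next. These 12 genes act beside a target or carry out a like reaction, and 11 were tested, since G6pd2 had no read in any library. None passed the threshold, beside 35.6% of all genes tested, in edgeR (2 higher and 2 lower at an unadjusted p under 0.05), in DESeq2 (2 higher unadjusted) or in limma-voom (2 higher and 2 lower unadjusted). Their median log2 fold change was 0.08. This list too was chosen with earlier results known, and Prdx1 and Txn1, which passed the test, stood among the other targets.

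Slc3a2, the heavy chain that carries xCT to the cell surface, had means of 201 ± 14.4 and 212 ± 4.83 CPM in normoxia and hyperoxia (SD, n = 4 each, log2 fold change 0.08, edgeR adjusted p = 0.298). In FPKM, Slc7a11 stood at 0.00119 to 0.00355 of Slc3a2 in normoxia and at 0.00276 to 0.00579 of it in hyperoxia. The mRNA of the light chain was thus a minute fraction of that of its partner in both groups. Gss, glutathione synthetase, which completes the step after glutamate-cysteine ligase, had a log2 fold change of 0.32 (95% interval 0.01 to 0.64, edgeR adjusted p = 0.105), with 18.6% of its exon bases under other genes.

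The reductases Txnrd2, of mitochondria, and Txnrd3, known mainly from testis, had log2 fold changes of 0.02 (95% interval -0.41 to 0.44, edgeR adjusted p = 0.959) and -0.28 (95% interval -0.54 to -0.01, edgeR adjusted p = 0.0990), beside 0.66 for Txnrd1. The FPKM ratio of Txnrd1 to Txnrd3 ran from 2.03 to 2.56 in normoxia and from 3.58 to 5.22 in hyperoxia. Among the peroxiredoxins, which sulfiredoxin repairs, Prdx2 and Prdx4 had log2 fold changes of -0.05 and 0.09, and the mitochondrial Prdx3 had 0.20 (edgeR adjusted p = 0.0626), with all hyperoxia libraries above all normoxia libraries. Prdx1, which stood in the list of other targets and is named here after its values were seen, rose from 147 ± 9.56 to 176 ± 4.82 CPM (SD, n = 4 each, log2 fold change 0.26, edgeR adjusted p = 0.00319).

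Nqo2, a paralog of Nqo1 that uses another cosubstrate, went the other way in value, with 24.4 ± 1.02 CPM in normoxia and 21.7 ± 0.554 CPM in hyperoxia (SD, n = 4 each), a log2 fold change of -0.17 (edgeR adjusted p = 0.0534). A gene on the opposite strand covered 18.9% of its exon bases. The FPKM ratio of Nqo1 to Nqo2 was 0.0874 to 0.188 in normoxia and 0.343 to 0.512 in hyperoxia. Hmox2, the constitutive heme oxygenase, had a log2 fold change of 0.14 (edgeR adjusted p = 0.111), close to the 0.20 of Hmox1, though 40.2% of its exon bases overlapped a gene on the opposite strand. Osgin2 had a log2 fold change of -0.18 (edgeR adjusted p = 0.265).

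The difference in log2 ratio was tested directly for 7 pairs, by exact two-sided permutation over the libraries. It was 1.76 for Nqo1 to Nqo2, 1.44 for Osgin1 to Osgin2, 1.06 for Slc7a11 to Slc3a2, 0.95 for Txnrd1 to Txnrd3, 0.62 for Txnrd1 to Txnrd2 and 0.06 for Hmox1 to Hmox2, beside the 0.55 of Gclc to Gclm given above. After adjustment over the 7 pairs none passed the threshold, with an exact permutation p of 0.0667 for 6 pairs and 0.657 for Hmox1 to Hmox2. Txnrd1 entered a pair of these ratios, which are therefore not independent.

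**Figure D3:**
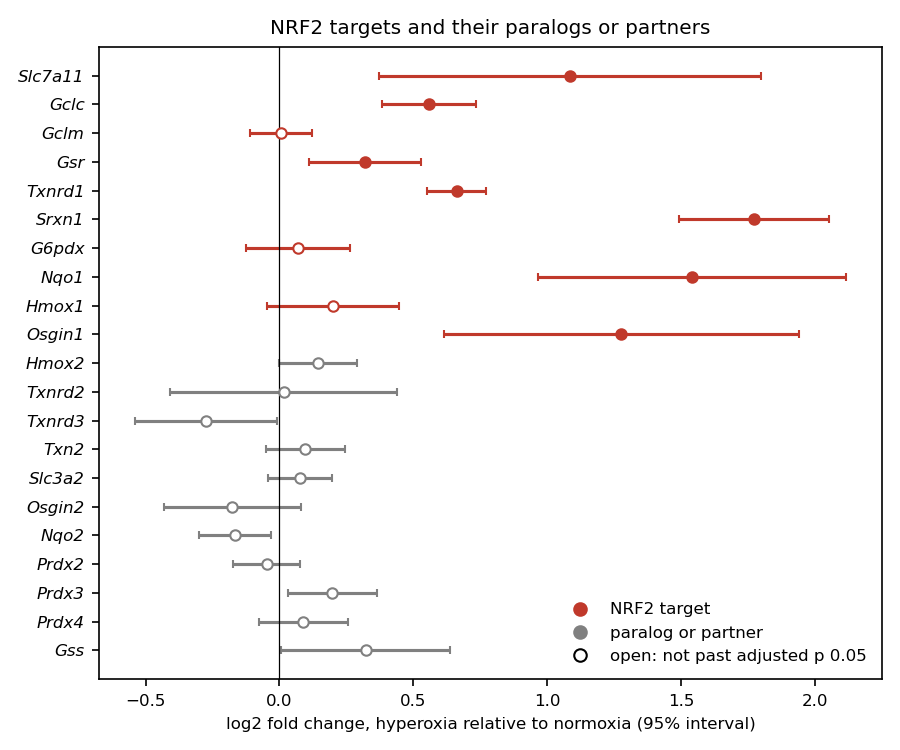
Log2 fold change, hyperoxia relative to normoxia, with its 95% interval from edgeR, for the 10 NRF2 targets (red) and 11 paralogs or partners (grey), n = 4 libraries a group, filled points being past an adjusted p of 0.05. The 7 filled points are all targets, from 0.32 for Gsr to 1.77 for Srxn1, and the partners lie between -0.28 and 0.32.

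Genes that control NRF2 moved in both directions. Of 12 regulators tested, 4 rose (Maff, Mafg, Sqstm1 and Nfe2l2) and 2 fell (Btrc and Cul3), beside 18.5% higher and 17.1% lower among all genes tested, and the median log2 fold change was 0.15. Nfe2l2 itself was at 97.1, 108, 109 and 101 CPM in normoxia 1 to 4 and at 120, 120, 117 and 114 CPM in hyperoxia 1 to 4, without overlap. It rose from 104 ± 5.71 to 118 ± 2.96 CPM (SD, n = 4 each), a log2 fold change of 0.18 (SE 0.0488, edgeR adjusted p = 0.0137). The counts measure mRNA, whereas NRF2 is known to be controlled mainly through the stability of the protein.

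Keap1, the sensor, had means of 43.1 ± 1.45 and 49.5 ± 4.96 CPM (SD, n = 4 each) and just missed the threshold (log2 fold change 0.20, edgeR adjusted p = 0.0517). Other annotated genes covered 10.9% of its exon bases. Bach1, a repressor that competes with NRF2 for the same DNA elements and is best known for holding Hmox1 down, was at 187 ± 41.4 and 203 ± 17.2 CPM (log2 fold change 0.12, edgeR adjusted p = 0.512). Its normoxia libraries were widely spread, from 151 to 243 CPM. Cul3, the scaffold of the ligase that acts with KEAP1, fell by 0.23 on the log2 scale, and Btrc, an adaptor of a second ligase that can target NRF2, fell by 0.45 (edgeR adjusted p = 0.00196 and 0.000243). Hyperoxia libraries lay below all normoxia libraries for both.

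The small MAF proteins are the DNA-binding partners of NRF2 and also of BACH1. Maff rose from 78.2 ± 14.9 to 153 ± 18.3 CPM and Mafg from 62.3 ± 4.26 to 88.5 ± 2.08 CPM (SD, n = 4 each), with log2 fold changes of 0.97 and 0.51 (edgeR adjusted p = 0.000215 and 5.39e-05). Sqstm1 encodes p62, which binds KEAP1 and is itself an NRF2 target. It rose from 294 ± 7.90 to 384 ± 19.8 CPM, by 0.39 on the log2 scale (edgeR adjusted p = 0.000148), though 17.3% of its exon bases overlapped a gene on the opposite strand.

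A further list of 30 genes known as NRF2 targets was read beside the 10. Of these, 26 were tested, 12 rose, 3 fell and 11 did not pass the threshold, beside 18.5% higher and 17.1% lower among all genes tested, while Gpx2, Ggt1, Gsta3 and Aldh3a1 had too few reads. Their median log2 fold change was 0.14, and 5 rose with a log2 fold change of at least 1, beside 5.62% of all genes tested. The 10 targets were chosen by name and their median of 0.61 is not a sample from this list.

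The 5 with the smallest adjusted p among those that rose were Ephx1, Akr1b8, Slc48a1, Me1 and Mgst1. Ephx1, a microsomal epoxide hydrolase, was at 93.9, 93.5, 95.5 and 91.8 CPM in normoxia 1 to 4 and at 243, 279, 237 and 264 CPM in hyperoxia 1 to 4. It rose 2.73-fold (log2 fold change 1.45, SE 0.0561, edgeR adjusted p = 6.98e-08). Akr1b8, an aldo-keto reductase, rose from 2.34 ± 0.506 to 17.5 ± 1.84 CPM (SD, n = 4 each), or 7.40-fold (log2 fold change 2.89, SE 0.157, edgeR adjusted p = 5.89e-07). This was a larger fold than that of any of the 10 targets.

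Slc48a1, a heme transporter, rose 1.53-fold from 87.9 ± 1.78 to 135 ± 3.36 CPM (edgeR adjusted p = 1.83e-06). Me1, the cytosolic malic enzyme, another source of NADPH, rose 3.35-fold from 5.37 ± 0.906 to 17.96 ± 3.62 CPM (edgeR adjusted p = 3.2e-05), and hyperoxia 3 was the lowest of its group at 12.7 CPM. Mgst1, a microsomal glutathione transferase, rose 2.42-fold from 5.30 ± 1.33 to 12.8 ± 1.51 CPM (edgeR adjusted p = 0.000236). Hyperoxia 3 was also the lowest hyperoxia library for Mgst1 (10.8 CPM), Slc48a1 (132 CPM) and Ephx1 (237 CPM). Akr1b8 was lowest in hyperoxia 1 (15.7 CPM).

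The 3 that fell were Ugdh, which makes UDP-glucuronic acid (log2 fold change -0.36, edgeR adjusted p = 0.00249), Txn1, the thioredoxin that Txnrd1 reduces (-0.19, edgeR adjusted p = 0.0160), and Cbr1, a carbonyl reductase (-0.28, edgeR adjusted p = 0.0202). Txn1 fell from 160 ± 8.49 to 141 ± 6.27 CPM while its reductase Txnrd1 rose. The ferritin chains, which store iron, took more counts than any other gene of the list. Ftl1 rose from 327 ± 17.8 to 411 ± 30.4 CPM (log2 fold change 0.33, edgeR adjusted p = 0.00200), with 34.6% of its exon bases under other annotated genes. Fth1 was at 299 ± 31.8 and 329 ± 43.2 CPM (log2 fold change 0.14, edgeR adjusted p = 0.314). Among the hyperoxia libraries, hyperoxia 3 was lowest for Ftl1 (374 CPM) and for Fth1 (277 CPM).

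**Figure D4:**
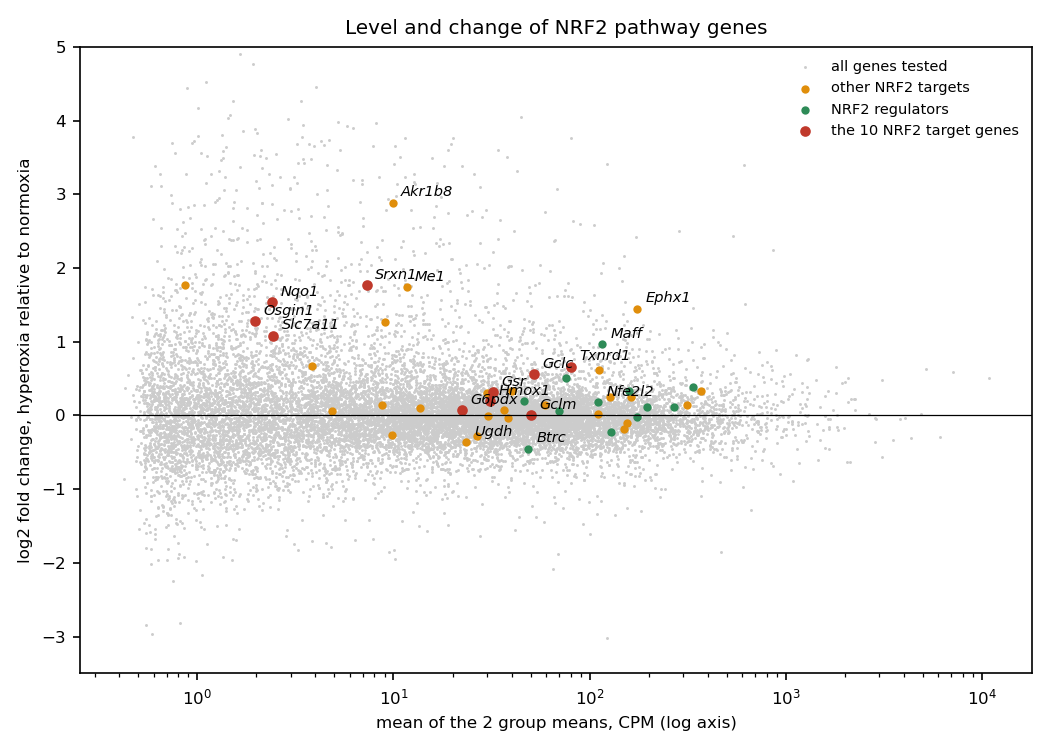
Log2 fold change, hyperoxia relative to normoxia (y axis), against the mean CPM of both groups (x axis, log scale) for the 15564 genes tested (grey, 6 outside the axes), the 10 NRF2 targets (red), other targets (orange) and regulators (green), each point being 1 gene. Srxn1, Nqo1, Osgin1 and Slc7a11 lie above a log2 fold change of 1 at low CPM, Txnrd1 and Gclc near 0.6, and Gclm, G6pdx and Hmox1 near the line at 0.

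Across the other lists, TGACNNNGC was found in 4 of 11 regulators and 10 of 25 other targets with a window, and in 0 of 11 paralogs and partners. Ggt1 and Gsta3, among the 10, had too few reads to be tested. The genome share was 12.4% per window, whereas genes were again counted with a match in any window (36 windows for the 25). A match could also lie after the start. TGANTCAGC was found in 4 of the 25 other targets and in none of the regulators or partners, beside 1.19% of all windows. Of these 4, Prdx1 and Me1 rose. Gstp1, with the letters TGAGTCAGC, and Pir did not pass the threshold (log2 fold change -0.0041 and 0.15, edgeR adjusted p = 0.977 and 0.412). The lists were small and chosen by hand, and these shares are given as a description.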

How the data were processed

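RNA-seq was performed on lung ECs of 4 normoxia and 4 hyperoxia libraries, grouped by their titles and treatment labels. The authors deposited whole-number read counts per gene and, in a second table, FPKM for the same 54532 genes. The submitters' processing notes name HISAT2 2.0.5, featureCounts 1.5.0-p3 and the build mm10. The use of strand and of reads matching several genes is not given in the sources used here. The deposited FPKM equalled count over gene length and library total, up to a constant of 0.974 to 1.02 per library. The labels name a column kit for RNA, and the study's methods another reagent.

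The main test was the quasi-likelihood F test in edgeR 4.0.16 (R 4.3.3) on the deposited counts, with TMM scaling, the filterByExpr filter and the group alone in the model. Benjamini-Hochberg adjustment covered the 15564 genes that passed. CPM carry the TMM scaling. DESeq2 1.42.0, limma-voom and limma 3.58.1 on log2(FPKM + 1) were alternatives, with other scalings, filters and thresholds and each library left out. Libraries of a group differed by more than counting noise (chi-square per degree of freedom 4.97 to 18.1). Nothing says that libraries came from separate litters, so p-values measure the spread between these samples. The biological coefficient of variation was 0.120. On simulated counts of 15348 genes for this comparison, 29 of 70 genes changed by a log2 fold of 0.5, 43 of 59 changed by 1 and 68 of 71 changed by 2 were called, with 7 false calls. Only these genes were changed, a far smaller share than the 35.6% called in the data. The adjustment is stricter when few genes change, so these rates do not give the power of the test in the data.

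Members and lists were chosen with earlier results of these data known. All 10 members were named. Of the regulators, Nfe2l2, Keap1, Bach1 and those past the test were named. Of the other targets, the 5 with the smallest adjusted p in each direction and the 3 with the highest mean CPM (Ftl1, Fth1 and Ephx1) were named. Gstp1 and Pir were added as carriers of TGANTCAGC, after their values were seen. Partners could be named beside their member, and the 2 most abundant markers of a list. Promoters are from RefSeq (GRCm38.p6). Coordinates are those of the files, and 53585 of 54495 genes found in GENCODE M21 (GRCm38) had the same ones there, which was also used for exon overlaps.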

Additional observations from a re-analysis of the deposited data

Results flagged for a closer look

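In each group of 4 libraries, the highest and the lowest value of each of the 10 targets were compared with the rest. Of 20 groups tested, 1 held a library far from the others, and chance alone gives about 1 in 20 (5%). G6pdx was at 18.5 CPM in normoxia 2, whereas the other 3 normoxia libraries were at 22.7 to 23.3 CPM and the hyperoxia libraries at 20.7 to 24.4 CPM. Without normoxia 2 the log2 fold change of G6pdx was -0.0047 in place of 0.07.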

How the results depend on the processing

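Of 22 alternatives, 20 were other fits and 2 were other thresholds. Srxn1, Nqo1, Osgin1, Txnrd1 and Gclc kept their direction and their call in all 20 fits, and Hmox1 stayed short of the threshold in all 20. The log2 fold change ranged from 1.20 to 1.83 for Srxn1, 0.89 to 1.78 for Nqo1, 0.50 to 1.49 for Osgin1, 0.61 to 0.69 for Txnrd1 and 0.48 to 0.60 for Gclc, and all of the low ends but that of Gclc were on the log2(FPKM + 1) scale, which understates changes of low genes. With limma on log2(FPKM + 1), Slc7a11 missed the threshold (0.15 on that scale, adjusted p = 0.0643, and 0.0987 without a filter), as Gsr did without a filter (0.0690). The number of targets called was 5 to 7 when single libraries were left out, 4 with a log2 fold change of at least 1 and 5 at an adjusted p under 0.01. For all genes, 1087 were called with a log2 fold change of at least 1 and 3527 at an adjusted p under 0.01, in place of 5535 (4526 to 5445 with single libraries left out), and for the other pathway genes 5 with that fold in place of 21 (21 to 23). The sign of Gclm, near 0, turned with upper quartile scaling (-0.0156), library totals (-0.0177), protein-coding genes only (-0.0112) and without normoxia 2 (-7.6e-05), normoxia 4 (-0.0255) or hyperoxia 4 (-0.0025), and that of G6pdx without normoxia 2 (-0.0047). With single libraries left out, Gclm ran from -0.0255 to 0.0397 and G6pdx from -0.0047 to 0.12. The cause was not tested. The replicate numbers gave no sign of pairing. Deviations of same-numbered libraries correlated at 0.113, 0.0416, -0.139 and -0.174, and none matched its own number best. With so few libraries, these values cannot exclude that same-numbered libraries shared a litter or a day. With the replicate block, 4792 genes, 7 targets and 23 other pathway genes were called. Slc7a11, Nqo1 and Osgin1 rested on 14 to 84 reads a library, and the part of depth in their spread was not tested.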
